A study of Homo sapiens with 12 samples.

Results

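The comparison described here sets 2 rescue lines against each other: K-562 cells in which MYB was knocked down while tagged MYB was expressed either with its normal sequence or with the D152V substitution. Its members are the 3 D152V rescue libraries and the 3 wild-type rescue libraries, 6 of the 12 RNA-sequencing libraries of the series. K-562 is a human erythroleukemia line with erythroid and megakaryocytic features. RNA was taken 24 h after siRNA transfection in 3 experiments, and poly(A) RNA was read as 125-bp pairs. Both rescue groups received si2992, the siRNA against MYB. The wild-type rescue line stably carried the construct labelled 3xTY-hcM, and the D152V rescue line the construct labelled 3xTY-D152V. The remaining libraries serve as reference levels: a line with the 3xTY1 tag alone given a non-targeting siGENOME siRNA (the siRNA control), and that same tag-only line given si2992 (the knockdown). All lines were selected with G418. The protein difference and any other difference between the 2 separately selected lines cannot be told apart in this design, since each protein is represented by 1 line. The 3 replicates of a group are therefore repeat experiments on 1 line, and every p-value measures the spread between those experiments.

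MYB is a transcription factor that keeps blood progenitors in an immature, dividing state, and its level drops as erythroid cells mature. It binds DNA through repeated MYB domains, recruits coactivators such as the acetyltransferases p300 and CBP, and drives genes that include KIT, MYC and LMO2. The substituted residue lies in the DNA-binding domain, and a mouse allele with the D152V substitution raises platelet numbers. How far this form stands in for normal MYB when the endogenous transcript is lowered is the question the comparison addresses.

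Values are FPKM, which count fragments per unit of transcript length relative to all mapped fragments. The test covered 12787 genes that reached an FPKM of 1 or more in 3 or more of the 6 libraries, of which 12597 carry a gene symbol. A log2 change is the mean log2(FPKM + 1) of the D152V rescue minus that of the wild-type rescue, so a negative value means lower in D152V, and the added 1 understates changes of low genes. A gene was called when its adjusted p from limma was under 0.05. FPKM totals of the 6 libraries ran from 672616 to 733176, and mitochondrial transcripts held 12.4% to 20.5% of them. Over the tested genes, libraries of the same line correlated at r of 0.984 to 0.992 and libraries of different lines at 0.951 to 0.963.

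MYB itself was lower in the D152V rescue. The wild-type rescue libraries held 132, 125 and 115 FPKM and the D152V libraries 86.6, 86.2 and 100.4 FPKM. The 2 sets did not overlap, and the log2 change was -0.44, SE 0.09, limma adjusted p = 0.00892. The siRNA control held 124, 132 and 104 FPKM and the knockdown 26.1, 32.9 and 31.5 FPKM, so both rescue lines lay far above the knockdown, and the D152V line lay below the lowest control library. The table gives 1 value for MYB, in which endogenous and introduced transcripts are not separated. The difference in MYB level goes with every result below, and its part in them was not tested.

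In all, 3318 genes were called, 25.9% of those tested. Of these, 1454 (11.4%) were higher and 1864 (14.6%) were lower in the D152V rescue. In 3299 of the called genes the 3 libraries of one line all lay above the 3 of the other, while 43.4% of all tested genes had groups that did not overlap. The median size of a called change was 0.59 on the log2 scale, and 36.6% of called changes were smaller than 0.5. Changes of at least 1 were reached by 379 higher and 268 lower genes. The counts moved when 1 library was left out: without D152V replicate 2, 750 genes were higher and 1171 lower, and without D152V replicate 1, 937 were higher and 1160 lower. Without wild-type replicate 1 the lower count was 1215, and without wild-type replicate 2 it was 1077. The main fit does not pair the libraries by replicate number, and with that number as a block 1938 genes were higher and 2530 lower. In a fit of all 12 libraries with 1 shared spread, 796 genes were higher and 835 lower. Where a call is said below to be lost with all 12 libraries in 1 fit, with 1 adjusted p in parentheses, that value is the highest over the settings, and the gene was called in all others at 0.05 in which it passed the filter. A gene present in 1 line alone can fail the filter when a library of that line is left out, as GP1BB did for each wild-type library. Such a gene is tested only because 1 line reached the limit, so the filter itself leans toward a difference. This holds for FAS, RARB, CD36, DLK1, THBS1 and CD9 below. It also holds for several of the largest changes, such as H19 and TUBA3C, and for the genes on in 1 line and off in the other.

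Genes that earlier work ties to MYB split into a larger lower and a smaller higher group. Of 19 tested MYB target genes, 8 were lower and 5 higher in the D152V rescue, with a median log2 change of -0.27 against -0.04 over all tested genes. The lower members were UCA1, LMO2, KIT, STAT5A, HSPA5, MYC, CDK6 and ADORA2B, and the higher ones DHRS2, ADA, SLC25A37, LYL1 and GATA1. The lower count stayed between 7 and 8 when any 1 library was left out, whereas the higher count ranged from 1 to 4. It was 1 without wild-type replicate 1 and 2 without wild-type replicate 2, D152V replicate 1 or D152V replicate 2. ADORA2B lost its call without any 1 library other than wild-type replicate 1 (limma adjusted p up to 0.105 over all settings), DHRS2 without wild-type replicate 1 or 3 or D152V replicate 1 or 2 (up to 0.162) and SLC25A37 without wild-type replicate 1 or 2 or D152V replicate 1 (up to 0.181).

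LMO2, a bridging protein of the GATA1 and TAL1 complex, stood at 26.5, 29.2 and 25.1 FPKM in the wild-type rescue and at 12.7, 9.33 and 10.99 FPKM in the D152V rescue. The control libraries held 30.3, 22.3 and 31.1 FPKM and the knockdown libraries 13.7, 9.64 and 13.5 FPKM. Thus the wild-type values lay within the control range and the D152V values within or just below the knockdown range, and the change between the rescue lines was -1.22, SE 0.12, limma adjusted p = 0.000299. KIT encodes the stem cell factor receptor. Its level was 10.6, 7.84 and 7.94 FPKM with wild-type MYB and 3.93, 3.73 and 2.97 FPKM with D152V, a change of -1.11, SE 0.15, limma adjusted p = 0.00141. The D152V values fell inside the knockdown range of 1.74, 4.48 and 3.50 FPKM, and the control held 5.02, 9.48 and 6.95 FPKM.

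STAT5A, which relays signals from cytokine receptors, was at 138, 145 and 109 FPKM in the wild-type rescue against 77.9, 81.5 and 64.7 FPKM in the D152V rescue. In the control it was at 159.6, 139 and 125 FPKM and in the knockdown at 82.8, 62.8 and 56.7 FPKM. The rescue lines differed by -0.80, SE 0.13, limma adjusted p = 0.00292, without overlap. STAT5A lies in a stretch of chromosome 17, from 40 to 50 Mb, where 52 of 145 tested genes were lower and 10 higher. MYC, a growth-promoting transcription factor, was at 194, 183 and 178 FPKM with wild-type MYB and 127, 127 and 97.1 FPKM with D152V. Its change was -0.66, SE 0.11, limma adjusted p = 0.0037, and the control held 217, 218 and 178 FPKM and the knockdown 71.2, 117 and 102 FPKM. For MYC, too, the D152V libraries lay below the control range, and 1 of them within the knockdown range.

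UCA1, a long noncoding RNA, showed a wider gap: 157, 171 and 192 FPKM in the wild-type rescue and 45.3, 45.5 and 72.9 FPKM in the D152V rescue, a change of -1.68, SE 0.18, limma adjusted p = 0.000373. The wild-type values exceeded even the control values of 111, 103 and 115 FPKM, while the knockdown held 28.7, 26.6 and 42.7 FPKM. CDK6, the cyclin-dependent kinase of early G1, stood at 44.03, 42.4 and 41.5 FPKM with wild-type MYB and 27.7, 28.6 and 25.7 FPKM with D152V, a change of -0.62, SE 0.08, limma adjusted p = 0.000966. Here the D152V values lay between the knockdown (15.4, 20.1 and 19.2 FPKM) and the control (32.2, 32.8 and 27.9 FPKM), overlapping the control at its lowest library. LEF1, a transcription factor of Wnt signalling, stood at 57.1, 61.3 and 50.8 FPKM against 31.3, 29.7 and 31.04 FPKM, a change of -0.85, SE 0.09, limma adjusted p = 0.000366, with the D152V values inside the knockdown range of 38.2, 20.7 and 22.4 FPKM.

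**Figure D1:**
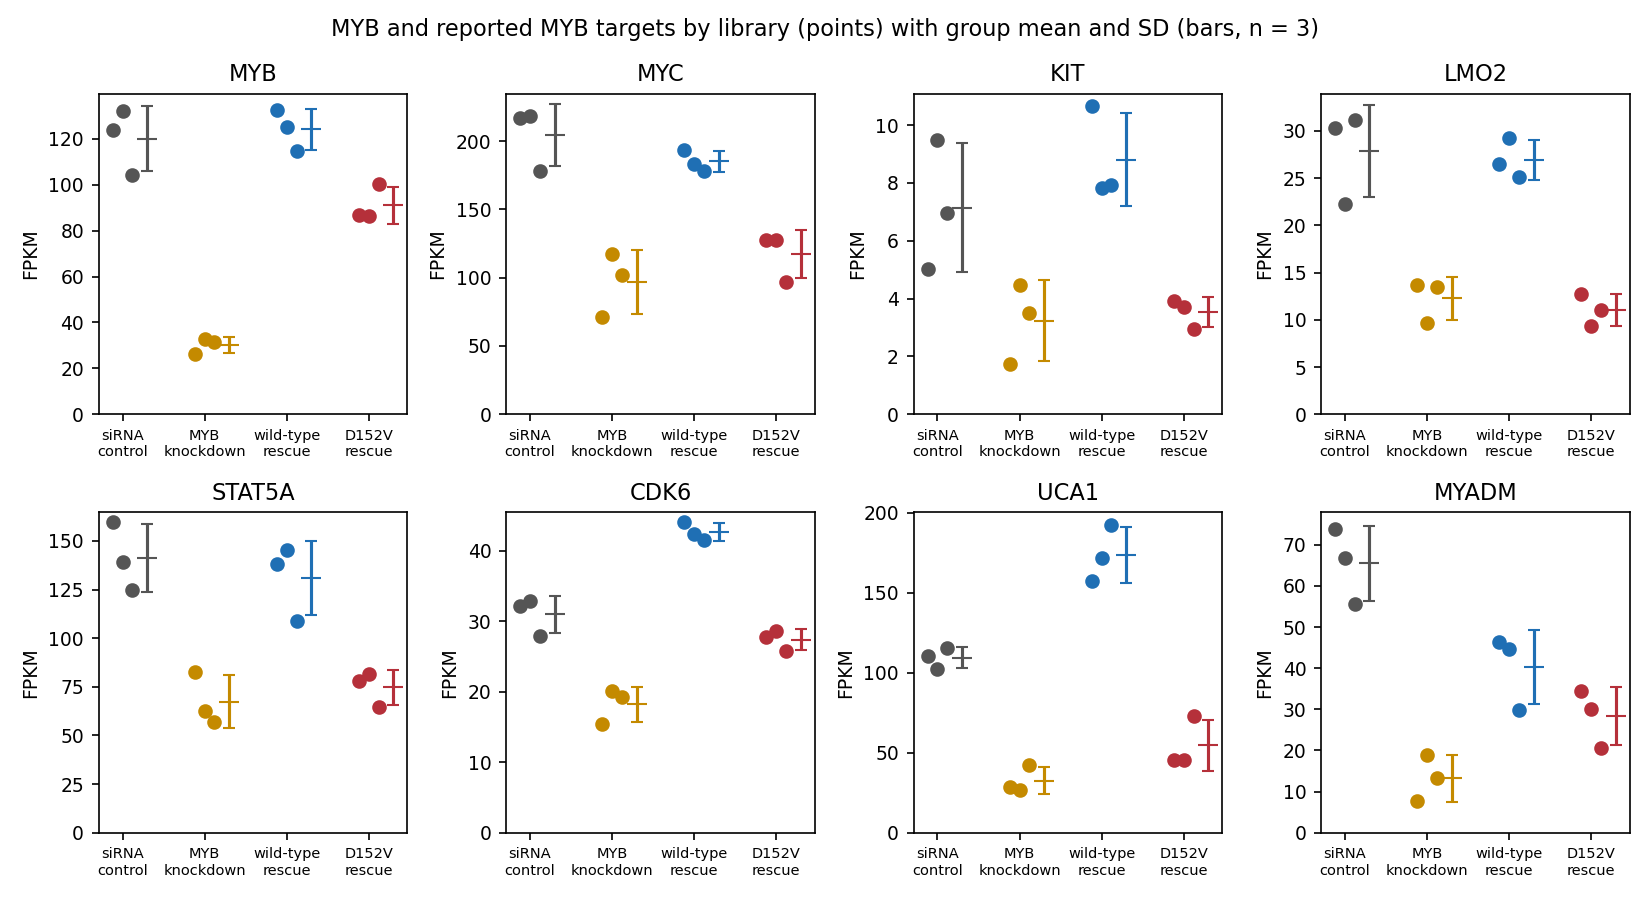
FPKM (vertical axes, from 0) of MYB and 7 genes reported as MYB targets in each library of the 4 groups, with points for libraries and bars for the group mean and SD of 3 libraries. For KIT, LMO2, MYC, STAT5A and UCA1 the wild-type rescue lies near or above the control and the D152V mean nearer to the knockdown than to the control, while the rescue lines overlap for MYADM.

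Other reported targets did not pass the test or passed it less firmly. MYADM, a myeloid differentiation marker, was at 46.4, 44.6 and 29.9 FPKM in the wild-type rescue and 34.4, 29.98 and 20.7 FPKM in the D152V rescue, with overlap at wild-type replicate 3. Its change of -0.50 had a limma adjusted p of 0.117. It was called without wild-type replicate 3 (limma adjusted p = 0.0303) and with the replicate number as a block (0.0025), and its adjusted p ran from 0.0025 to 0.334 over all settings. GATA2, a progenitor transcription factor, stood at 59.4, 53.7 and 52.3 and 72.4, 74.8 and 55.7 FPKM, with overlapping lines and a limma adjusted p of 0.12. It too was called with the block (0.043) and without D152V replicate 3 (0.0193), within a range of 0.0193 to 0.335. ADA, adenosine deaminase, which lies in a stretch of chromosome 20 where most genes were lower, was called higher at 0.63, SE 0.18, limma adjusted p = 0.0322, but the call was lost without any 1 library other than wild-type replicate 3, with adjusted p-values up to 0.109 over all settings. BCL2, at 0.879, 1.18 and 0.827 FPKM against 0.4, 0.473 and 0.294 FPKM, was below the filter and not tested in the main comparison. With no filter it was called lower (limma adjusted p = 0.0422).

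Whether promoters of the changed genes carry MYB recognition words was read from the RefSeq promoter sequences of GRCh38.p14, which span 250 bases before to 50 after each gene start. Each word was searched on both strands. The word CAACTG was searched together with the word CAACGG, and the word TAACTG together with the word TAACGG. At least 1 word occurred in 25.9% of all 27305 promoters and in 24.5% of the 9354 promoters matched to a tested gene. The share was 23% among genes called lower, 23% among genes called higher and 25% among genes not called. Of 5 lower MYB targets with a promoter in the table none carried a word, and of 4 higher ones 1 did (ADA). The promoters of 4 genes are printed as examples of words in genes of each direction: KIT was lower with no word, MYADM was not called with 2 words, DNAJA1 was lower with 2 words and SSX1 was higher with 2 words. All are on the plus strand, written 5′ to 3′, with the words or their reverse complements in capitals.
KIT promoter, chr4:54657707-54658006: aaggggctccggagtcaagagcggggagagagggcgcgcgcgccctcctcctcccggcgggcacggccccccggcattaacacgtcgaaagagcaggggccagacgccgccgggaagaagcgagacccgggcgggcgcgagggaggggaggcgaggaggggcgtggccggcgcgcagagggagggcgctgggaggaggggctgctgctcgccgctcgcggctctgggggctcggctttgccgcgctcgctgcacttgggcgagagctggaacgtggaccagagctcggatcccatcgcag
MYADM promoter, chr19:53866121-53866420: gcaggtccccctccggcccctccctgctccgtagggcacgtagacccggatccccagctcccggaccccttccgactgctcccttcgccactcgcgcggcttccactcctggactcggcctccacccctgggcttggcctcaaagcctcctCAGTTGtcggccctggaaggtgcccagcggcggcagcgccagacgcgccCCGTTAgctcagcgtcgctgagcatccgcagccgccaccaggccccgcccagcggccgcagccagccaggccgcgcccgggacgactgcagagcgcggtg
DNAJA1 promoter, chr9:33025023-33025322: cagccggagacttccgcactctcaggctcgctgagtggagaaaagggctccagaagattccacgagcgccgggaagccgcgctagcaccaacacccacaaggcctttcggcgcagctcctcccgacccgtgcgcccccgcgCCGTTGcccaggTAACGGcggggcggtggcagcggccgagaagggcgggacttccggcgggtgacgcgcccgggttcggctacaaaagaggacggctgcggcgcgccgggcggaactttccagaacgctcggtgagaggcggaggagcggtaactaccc
SSX1 promoter, chrX:48255142-48255441: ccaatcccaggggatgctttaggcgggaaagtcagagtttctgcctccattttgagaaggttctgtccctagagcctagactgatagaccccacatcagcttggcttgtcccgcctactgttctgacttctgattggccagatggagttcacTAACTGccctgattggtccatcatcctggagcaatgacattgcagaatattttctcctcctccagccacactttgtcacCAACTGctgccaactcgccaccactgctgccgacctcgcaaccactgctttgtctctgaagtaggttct
The words begin 99 and 50 bases before the start of MYADM, 109 and 97 before that of DNAJA1, and 98 and 19 before that of SSX1. A match is only a stretch of letters, and a promoter without one may still be bound by MYB.

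Partners of MYB were more often lower than higher, as were all tested genes together (14.6% lower and 11.4% higher). Of 23 tested members of the list of MYB and its partners, 4 were higher and 8 lower, with a median of -0.14. The coactivators did not pass the test: EP300, which encodes p300, was at 9.25, 9.99 and 8.59 FPKM in the wild-type rescue and 8.62, 9.21 and 7.94 FPKM in the D152V rescue (limma adjusted p = 0.534). CREBBP, which encodes CBP, was at 10.1, 10.8 and 8.64 and 8.55, 9.60 and 8.34 FPKM (limma adjusted p = 0.415), also overlapping. TAF12, a TFIID subunit, fell from 59.99, 60.3 and 56.4 to 28.5, 27.1 and 32.7 FPKM, a change of -0.98, SE 0.09, limma adjusted p = 0.000204, and SKI, a corepressor, changed by -0.75, SE 0.13, limma adjusted p = 0.00346. The histone deacetylase HDAC1 was at 164, 162 and 185 FPKM with wild-type MYB and 113, 122 and 134 FPKM with D152V, a change of -0.47, SE 0.09, limma adjusted p = 0.00717. PIAS1, a SUMO ligase, was higher at 0.51, SE 0.10, limma adjusted p = 0.00734. TAF12 and SKI lie in a stretch of chromosome 1 where most genes were lower, and PIAS1 in a stretch of chromosome 15 where most were higher. Outside all such stretches the list counted 2 higher and 5 lower of 18. HDAC1 counts as outside, but it lies just past the chromosome 1 stretch, from 30 to 40 Mb, where 22 of 78 genes were lower and 3 higher. The higher count was 2 without wild-type replicate 1 or 3 and 1 without D152V replicate 1 or 2, and the lower count was 5 without wild-type replicate 2, D152V replicate 1 or D152V replicate 2. With all 12 libraries in 1 fit SKI (0.262) and PIAS1 (0.0665) lost their calls.

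Neighbouring genes with a shared direction formed 12 stretches of the genome. The tested genes were laid along GRCh38.p14 in windows of 10 Mb, and windows of at least 20 tested genes with a median change of at least 0.3 in either direction were joined into blocks, a limit chosen after the values were seen. Of 218 windows 19 passed it. The blocks hold 927 tested genes (7.25%), of which 58.4% were called and 23.4% of the others, shares that follow from how the windows were chosen and carry no test. They contribute 254 higher and 287 lower genes, or 16.3% of the called genes. Outside the blocks 1200 genes were higher and 1577 lower.

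Chromosome 15 from 50 to 100 Mb was the longest block on the higher side. Of its 242 tested genes 145 were higher and 5 lower, with a median change of 0.49. Against the control mean the median of this block was -0.52, -0.45 and -0.43 in the 3 wild-type libraries and -0.04, 0.03 and 0.05 in the 3 D152V libraries. It was therefore the wild-type line that lay below the control here. The end of the X chromosome behaved likewise: from 150 to 160 Mb 48 of 63 genes were higher and 1 lower, with a median of 0.66, and the wild-type line lay at -0.51, -0.64 and -0.77 against the control. Genes on chromosome 7 from 150 to 160 Mb had a median of 0.38, again with the wild-type line below the control (-0.35). On the X chromosome from 130 to 140 Mb the lines lay on either side of it, at -0.28 for wild-type MYB and 0.22 for D152V.

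On the lower side the D152V line lay below the control, and the wild-type line near it, in 4 blocks. The first 30 Mb of chromosome 1 held 250 tested genes, 128 lower and 13 higher, with a median of -0.37. The D152V libraries stood at -0.48, -0.39 and -0.40 against the control and the wild-type libraries at -0.09, -0.07 and -0.07. Chromosome 17 from 30 to 40 Mb (39 of 75 genes lower, median -0.41) and chromosome 20 from 40 to 50 Mb (29 of 51 lower, median -0.41) showed the same order, as did chromosome 12 from 130 to 140 Mb with a smaller shift (-0.18 against the control, and 0.05 for the wild-type line). In 3 other blocks the wild-type line lay above the control and the D152V line near it: chromosome 1 from 210 to 220 Mb (0.29 and -0.06), chromosome 1 from 230 to 250 Mb (0.30 and -0.05) and chromosome 5 from 110 to 120 Mb (0.30 and 0.02). A block on chromosome 19 from 20 to 30 Mb, with a median of -0.59 and the lines on either side of the control (0.33 for wild-type MYB and -0.36 for D152V), held 33 tested genes, of which 23 were zinc finger genes, 18 of them called lower and all 23 with a negative change. Over whole chromosomes, 46.7% of tested genes were called on chromosome 15 (162 higher, 13 lower), 40.3% on X (133 higher, 35 lower) and 36.1% on chromosome 1 (102 higher, 314 lower), while the other 20 ranged from 17.5% to 28.7%. Without D152V replicate 2 the higher count on chromosome 15 was 105. DNA of the lines was not analysed here. Membership in a block is given beside the named genes that lie in one. The edges are those of the windows, and a neighbouring window that missed the limit can hold a shift of the same direction. Chromosome 17 from 40 to 50 Mb had 52 lower and 10 higher of 145 genes (median -0.23), and chromosome 1 from 30 to 40 Mb 22 and 3 of 78. STAT5A, STAT5B, TOP2A, RARA and IGFBP4 lie in the former and HDAC1 in the latter. Chromosome 1 from 220 to 230 Mb, between blocks of that chromosome, had 25 lower and 4 higher of 57 genes (median -0.27). ABCB10 lies there, as does ENAH, which was higher. Chromosome X from 140 to 150 Mb had under 20 tested genes and was not assessed.

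**Figure D2:**
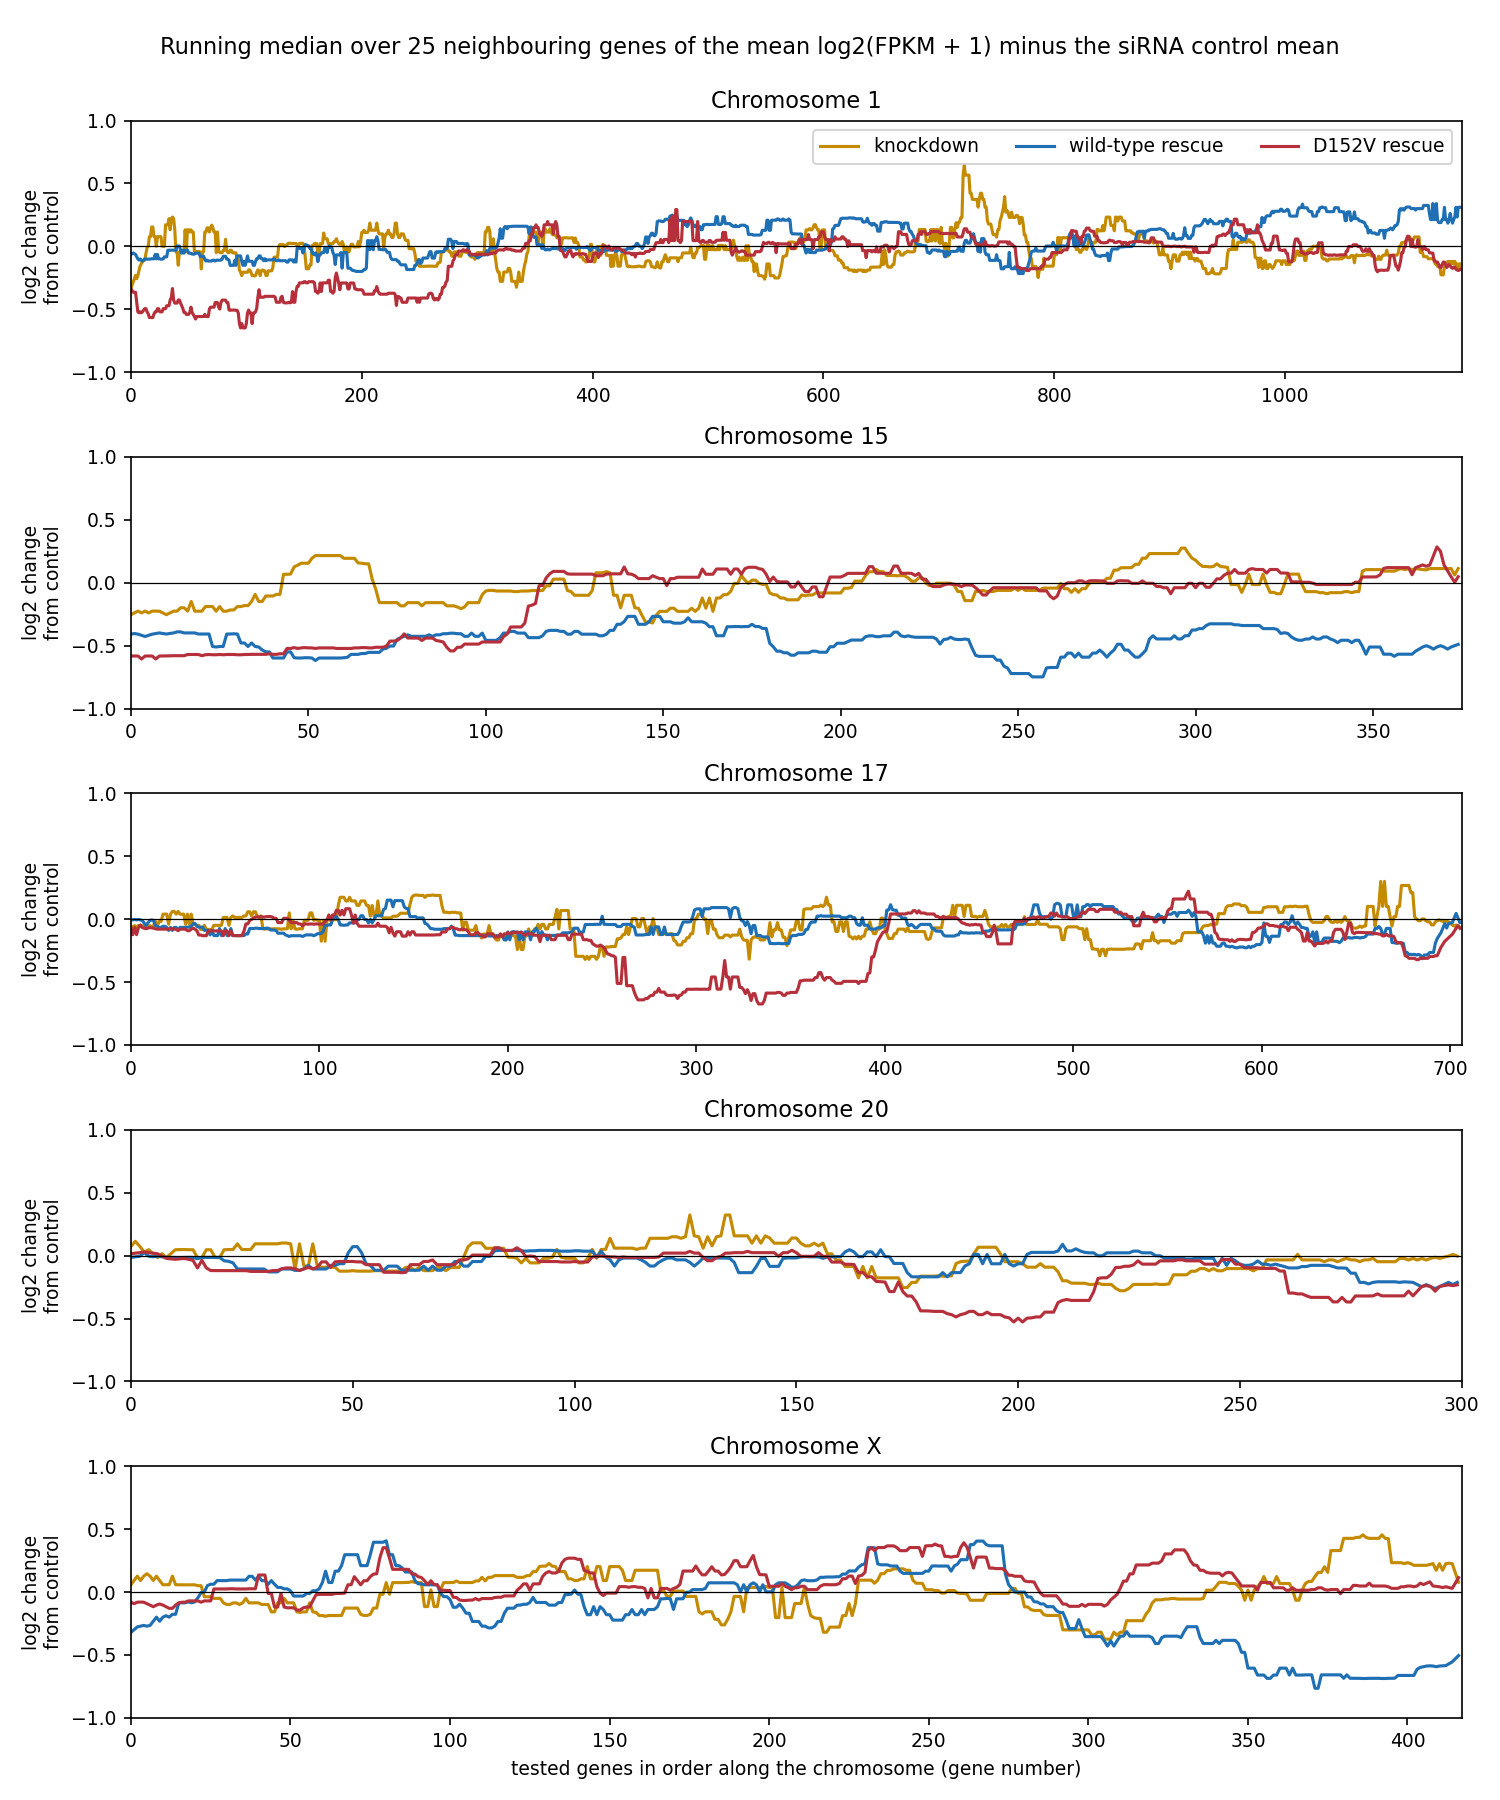
Running median over 25 neighbouring tested genes of the mean log2(FPKM + 1) minus the siRNA control mean (vertical axes), by gene order along 5 chromosomes (horizontal axes), for the knockdown, the wild-type rescue and the D152V rescue. The wild-type line is low over chromosome 15 and the end of X, and the D152V line over the start of chromosome 1 and parts of 17 and 20.

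**Figure D3:**
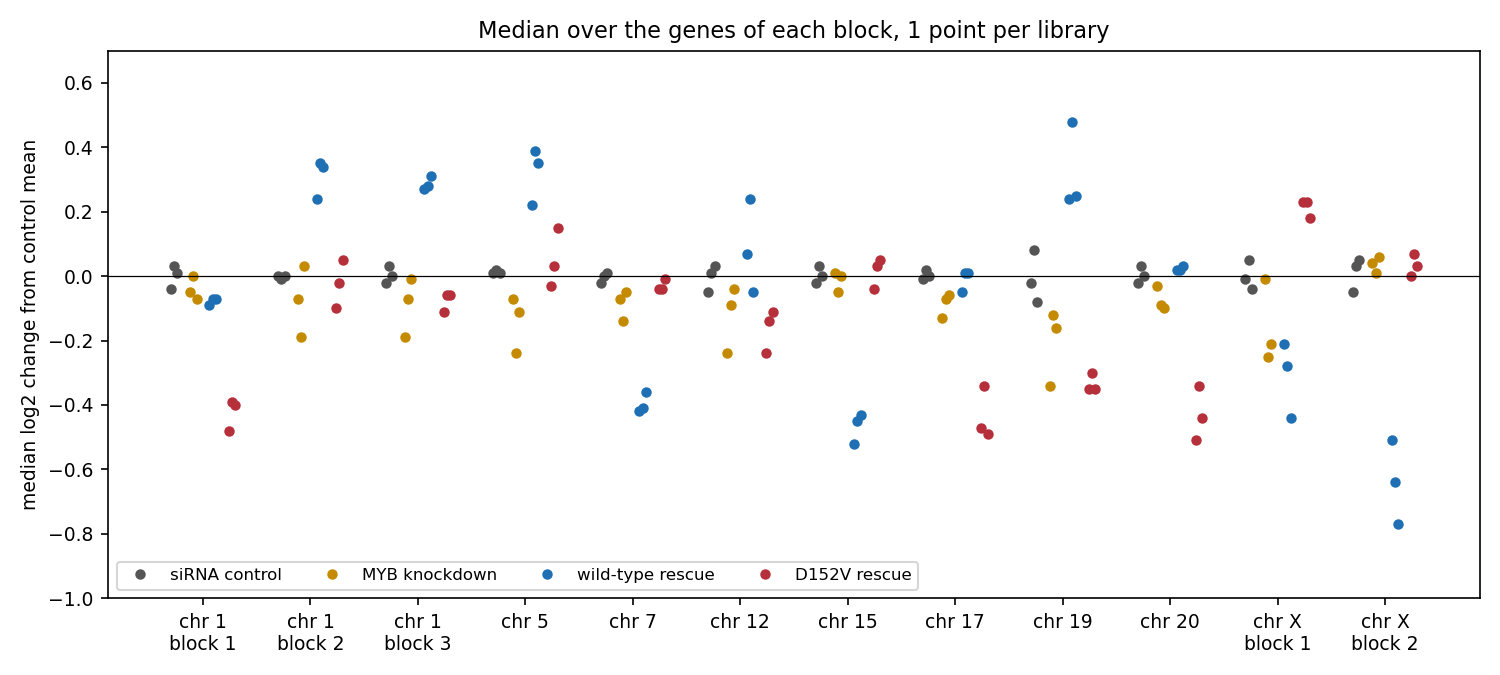
Median log2(FPKM + 1) change from the control mean (vertical axis) over the genes of each of the 12 blocks, with 1 point per library. The 3 libraries of the wild-type rescue and of the D152V rescue lie apart in every block, which follows largely from choosing the blocks by the difference between these lines. The knockdown libraries lie nearer to 0 than the rescue line that departs in the blocks of chromosomes 15, 17 and 20.

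Erythroid genes were more often higher than lower in the D152V rescue. Of 8 tested globin genes 4 were higher and none lower, with a median change of 0.59. HBE1, the embryonic epsilon globin, was at 46.99, 43.1 and 72.6 FPKM in the wild-type rescue and 151, 168 and 428 FPKM in the D152V rescue, a change of 2.05, SE 0.37, limma adjusted p = 0.00488. Both lines lay below the control, which held 899.5, 509 and 1219.9 FPKM. HBZ, the embryonic zeta globin, was at 564, 338 and 1187 FPKM with wild-type MYB and 1923, 1506 and 2605 FPKM with D152V, again without overlap and with a wide spread in each line. Its change was 1.68, SE 0.40, limma adjusted p = 0.0168, and the call was lost without wild-type replicate 1 (0.0521) or D152V replicate 3 (0.0505), with all 12 libraries in 1 fit, with robust moderation and with no filter, in a range of 0.000919 to 0.0792. HBQ1, theta globin, rose from 11.5, 8.48 and 13.2 to 25.3, 22.9 and 27.8 FPKM, a change of 1.141, SE 0.15, limma adjusted p = 0.00126. HBA2 was higher at 0.74, SE 0.20, limma adjusted p = 0.0288, but its adjusted p passed 0.05 without wild-type replicate 1, wild-type replicate 2, D152V replicate 1 or D152V replicate 3 (0.0844, 0.0955, 0.0715 and 0.0723, in a range of 0.000497 to 0.401).

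The fetal globins did not pass the test. HBG2 stood at 50.01, 59.9 and 96.4 FPKM in the wild-type rescue and 64.9, 66.6 and 110.5 FPKM in the D152V rescue (limma adjusted p = 0.541), and HBG1 at 14.02, 14.3 and 23.8 and 16.7, 14.7 and 24.3 FPKM (limma adjusted p = 0.774). In both genes replicate 3 was the highest library of each line, and with the replicate number as a block HBG2 was called (limma adjusted p = 0.0365, range 0.0365 to 0.986). HBG1 and HBG2 are near-identical copies, as are HBA1 and HBA2, so their separate values are uncertain. The summed FPKM of all listed globins ran from 855 to 1719 in the wild-type rescue and from 2143.5 to 3712 in the D152V rescue.

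Of 27 tested red cell membrane and maturation genes 12 were higher and 4 lower, with a median of 0.37. RHAG, the Rh-associated glycoprotein, rose from 185, 162 and 195 to 304, 307 and 299 FPKM (0.75, SE 0.09, limma adjusted p = 0.000593), where the control held 317, 307 and 317 FPKM. HEMGN, hemogen, an erythroid nuclear protein, rose from 61.4, 67.6 and 78.9 to 124, 122 and 157 FPKM (0.94, SE 0.13, limma adjusted p = 0.00123). GYPE and DMTN, which encodes the cytoskeletal protein dematin, were higher by 1.19 and 0.90.

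Not all erythroid genes took that direction. SLC4A1, the anion exchanger band 3, was lower at -1.13, SE 0.22, limma adjusted p = 0.00696, and AHSP, the chaperone of alpha globin, was lower at -0.92, SE 0.19, limma adjusted p = 0.00832, a call lost with all 12 libraries in 1 fit (0.189). CD36, a scavenger receptor of erythroid precursors, fell from 3.11, 2.89 and 3.39 to 0.0862, 0.284 and 0.376 FPKM (-1.73, SE 0.15, limma adjusted p = 0.000184), and ACHE, acetylcholinesterase, changed by -0.57, a call lost without any 1 of the D152V libraries (up to 0.132 over all settings). CD36 passed the filter through the wild-type libraries alone, so its call depends in part on the filter. EPOR, the erythropoietin receptor, stood at 5.09, 6.01 and 4.15 and 6.65, 6.47 and 6.17 FPKM in the wild-type and D152V rescue and did not pass the test (limma adjusted p = 0.144). The higher count of 12 was 6 without wild-type replicate 1 and 7 without D152V replicate 3, and the lower count of 4 was 1 without any 1 of the wild-type libraries. The globin count of 4 was 2 without wild-type replicate 1 or D152V replicate 3. With all 12 libraries in 1 fit the counts were 4 higher and 2 lower membrane genes and 1 globin (HBE1), and HBQ1 (0.0983) lost its call.

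Heme and iron genes divided. Of 23 tested, 6 were higher and 4 lower, with a median of 0.01. ALAS2, the erythroid enzyme of the first step of heme synthesis, was at 32.1, 48.3 and 42.9 FPKM in the wild-type rescue and 88.6, 93.7 and 128 FPKM in the D152V rescue, a change of 1.31, SE 0.18, limma adjusted p = 0.00126. The control held 53.4, 54.9 and 66.1 FPKM. PPOX, a late enzyme of the pathway, rose from 10.9, 9.14 and 8.32 to 24.1, 24.01 and 27.00 FPKM (1.32, SE 0.11, limma adjusted p = 0.000179), and ALAD and UROD were higher by 0.74 and 0.52. The call of UROD was lost without wild-type replicate 1 or 2 or D152V replicate 2 or 3 (limma adjusted p up to 0.168 over all settings). In the opposite direction SLC40A1, the iron exporter ferroportin, fell from 55.4, 48.1 and 59.4 to 13.9, 11.9 and 19.1 FPKM (-1.81, SE 0.16, limma adjusted p = 0.000184). The control held 28.7, 24.1 and 32.7 FPKM and the knockdown 3.25, 9.87 and 17.99 FPKM, so the rescue lines lay on opposite sides of the control. ABCB10, a mitochondrial transporter, was lower at -0.84, SE 0.12, limma adjusted p = 0.00167. The lower count of 4 was 2 without any 1 library other than D152V replicate 3.

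Among 22 tested hematopoietic transcription factors 3 were higher and 7 lower, with a median of -0.13. RUNX1, a regulator of blood stem cells and megakaryocytes, fell from 23.7, 29.8 and 19.6 to 13.8, 15.02 and 9.67 FPKM (-0.88, SE 0.19, limma adjusted p = 0.0104), against a control of 17.9, 18.1 and 15.7 FPKM. ZFPM1, the GATA1 cofactor FOG1, was lower at -0.82, SE 0.22, limma adjusted p = 0.0243, a call lost without any 1 of the D152V libraries (up to 0.0866 over all settings). GATA1 itself was at 87.1, 80.8 and 105 FPKM with wild-type MYB and 115, 119 and 138 FPKM with D152V. Its change of 0.45, SE 0.11, limma adjusted p = 0.0219 lost the call without wild-type replicate 1, wild-type replicate 2, D152V replicate 2 or D152V replicate 3 (0.0708, 0.0689, 0.058 and 0.0643, in a range of 0.00288 to 0.0708). SPI1, which encodes PU.1, fell from 10.9, 14.1 and 9.44 to 6.92, 9.07 and 6.07 FPKM (-0.58, SE 0.18, limma adjusted p = 0.0418), a call lost without wild-type replicate 1 or 2 or D152V replicate 1 or 3 (0.0853, 0.132, 0.112 and 0.112, in a range of 0.00372 to 0.133). LYL1 was higher at 0.49, SE 0.09, limma adjusted p = 0.00598, but not with all 12 libraries in 1 fit (0.0716). TAL1 (limma adjusted p = 0.114), KLF1 (0.188) and CEBPB (0.657) were not called. The higher count of 3 was 1 without wild-type replicate 1, wild-type replicate 2 or D152V replicate 2, and the lower count of 7 was 4 without wild-type replicate 2, D152V replicate 1 or D152V replicate 2 and 3 without D152V replicate 3.

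Since the mouse allele is known for its platelets, megakaryocyte and platelet genes were listed. Of 36 listed genes 19 passed the filter, and of these 6 were higher and 3 lower, with a median of -0.04, that of all genes. THBS1 and CD9 passed through the D152V libraries alone and GP1BB through the wild-type libraries alone, so their calls depend in part on the filter. THBS1, thrombospondin, rose from 0.38, 0.448 and 0.782 to 4.96, 7.84 and 2.95 FPKM (1.96, SE 0.27, limma adjusted p = 0.0015), and CD9, a platelet tetraspanin, from 0.83, 0.33 and 0.255 to 3.73, 5.06 and 2.31 FPKM (1.65, SE 0.25, limma adjusted p = 0.00201). FERMT3, which activates platelet integrins, was higher by 0.72, a call lost without D152V replicate 2 (0.0554, the highest over all settings). TPM4, a tropomyosin of platelets, fell from 85.4, 94.2 and 80.00 to 34.1, 39.96 and 41.99 FPKM (-1.14, SE 0.10, limma adjusted p = 0.000184). GP1BB, a chain of the von Willebrand factor receptor, was at 10.3, 24.9 and 6.49 FPKM in the wild-type rescue and 0.421, 0 and 0 FPKM in the D152V rescue, but it varied widely elsewhere, with 63.99, 0 and 0 FPKM in the knockdown, and its call (-3.53, SE 0.40, limma adjusted p = 0.000551) was lost with all 12 libraries in 1 fit (0.0991). ITGA2B, platelet integrin alpha IIb, was low in both lines (0.917, 1.09 and 1.48 and 0.811, 1.54 and 0.985 FPKM) and was not called. PF4, SELP, TREML1 and MMRN1 were at 0 in all 6 libraries. The higher count of 6 was 3 without D152V replicate 2, and the lower count of 3 was 1 without wild-type replicate 2.

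Most markers of other cell types did not pass the filter, but some that passed were well expressed in both lines. The lymphoid marker CD3D was at 33.3 to 58.9 FPKM in the wild-type rescue and 77.2 to 109.6 FPKM in the D152V rescue. The epithelial marker EPCAM was at 51.9 to 72.6 and 32.1 to 36.0 FPKM. Of 26 monocyte and granulocyte markers 3 passed the filter, and their list summed to 45.3 to 54.8 FPKM in the wild-type rescue and 27.0 to 34.4 in the D152V rescue. MPO, ELANE, CTSG and S100A8 were at 0, and CD14 did not exceed 0.231 FPKM. Of 24 fibroblast, epithelial and muscle markers 11 passed, with sums of 1199.8 to 1316 and 1194 to 1423 FPKM. Of 12 mast cell and basophil markers 4 passed (88.8 to 109 and 72.7 to 95.2 FPKM), and CPA3, FCER1A and CMA1 were at 0. Of 21 lymphoid markers 7 passed, with sums of 49.1 to 77.5 FPKM in the wild-type rescue and 100 to 147 FPKM in the D152V rescue, which did not overlap. PTPRC, the leukocyte antigen CD45, rose from 2.08, 2.35 and 2.51 to 9.31, 10.7 and 16.99 FPKM (1.97, SE 0.20, limma adjusted p = 0.000321), with 19.3, 22.9 and 34.3 FPKM in the control. CD3D and CD3G, chains of the T cell receptor complex, changed by 0.98 and 1.53, and PRF1, perforin, was lower, at 3.23, 3.39 and 4.35 FPKM with wild-type MYB and 1.21, 1.20 and 1.56 FPKM with D152V. The call of CD3D was lost with all 12 libraries in 1 fit (0.187), and the lower count of 2 was 1 without any 1 library other than D152V replicate 2. The 14 lymphoid markers that did not pass the filter reached at most 0.854 FPKM (CD3E). Of these, MS4A1, KLRD1 and BLNK were at 0, and CD2, CD5 and LCK at or below 0.103 FPKM. CD34 was at or below 0.0272 FPKM.

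The protein-folding genes that changed were all lower in the D152V rescue, in both lists. Of 23 tested genes of the unfolded protein response of the endoplasmic reticulum 16 were lower and none higher, with a median of -0.42, and none of the 23 lies in a block. HSPA5, the main chaperone of the compartment (BiP), stood at 297, 281 and 340.1 FPKM in the wild-type rescue and 177, 179 and 202 FPKM in the D152V rescue, a change of -0.71, SE 0.10, limma adjusted p = 0.00127. The control held 198, 177 and 233 FPKM, so D152V replicate 1 lay just below the control range and the other D152V libraries within it, while the wild-type values lay above it. HSP90B1, the resident HSP90, fell from 582, 619 and 719 to 362, 359 and 414 FPKM (-0.75, SE 0.10, limma adjusted p = 0.00142), against 368, 335 and 435 FPKM in the control. MANF, a secreted stress protein, fell from 37.4, 37.7 and 45.4 to 22.8, 25.2 and 24.6 FPKM (-0.70, SE 0.10, limma adjusted p = 0.00152), against 24.3, 24.3 and 27.4 FPKM in the control. HERPUD1 and DNAJB9, which act in the disposal of misfolded proteins, were lower at -0.90 and -0.73. The stress sensors ATF6 (0.01), EIF2AK3 (-0.15) and ERN1 (-0.09) and the effector XBP1 (-0.21) did not pass the test.

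Of 21 tested heat shock genes 14 were lower and none higher, with a median of -0.47. CRYAB, the small heat shock protein alpha-B crystallin, had the widest gap: 160.4, 153 and 212 FPKM in the wild-type rescue and 9.78, 11.4 and 17.2 FPKM in the D152V rescue, a change of -3.70, SE 0.20, limma adjusted p = 1.78e-05. The control held 20.05, 16.3 and 19.7 FPKM, so most of the distance lay between the wild-type line and the control. HSPA1A, the inducible HSP70, fell from 419, 340.0 and 338 to 181, 134 and 163 FPKM (-1.20, SE 0.13, limma adjusted p = 0.000422), and its close copy HSPA1B changed by -0.86. Reads of these copies may have been divided between them. The cochaperone DNAJA1 fell from 408, 461 and 420.4 to 241, 244 and 246 FPKM (-0.81, SE 0.08, limma adjusted p = 0.000221), with 244, 253 and 249.6 FPKM in the control. The regulator HSF1 (-0.01) and the constitutive HSPA8 (-0.06) were not called.

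Without any 1 library, 11 to 15 genes of the endoplasmic reticulum list and 11 to 13 heat shock genes were lower. With all 12 libraries in 1 fit, only 2 of the former were called against 11 of the latter. In that fit HSPA5 (0.0753), HSP90B1 (0.104) and MANF (0.199) lost their calls, where knockdown replicate 1, which enters the shared spread, held 358, 807 and 86.05 FPKM, more than the other knockdown libraries.

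**Figure D4:**
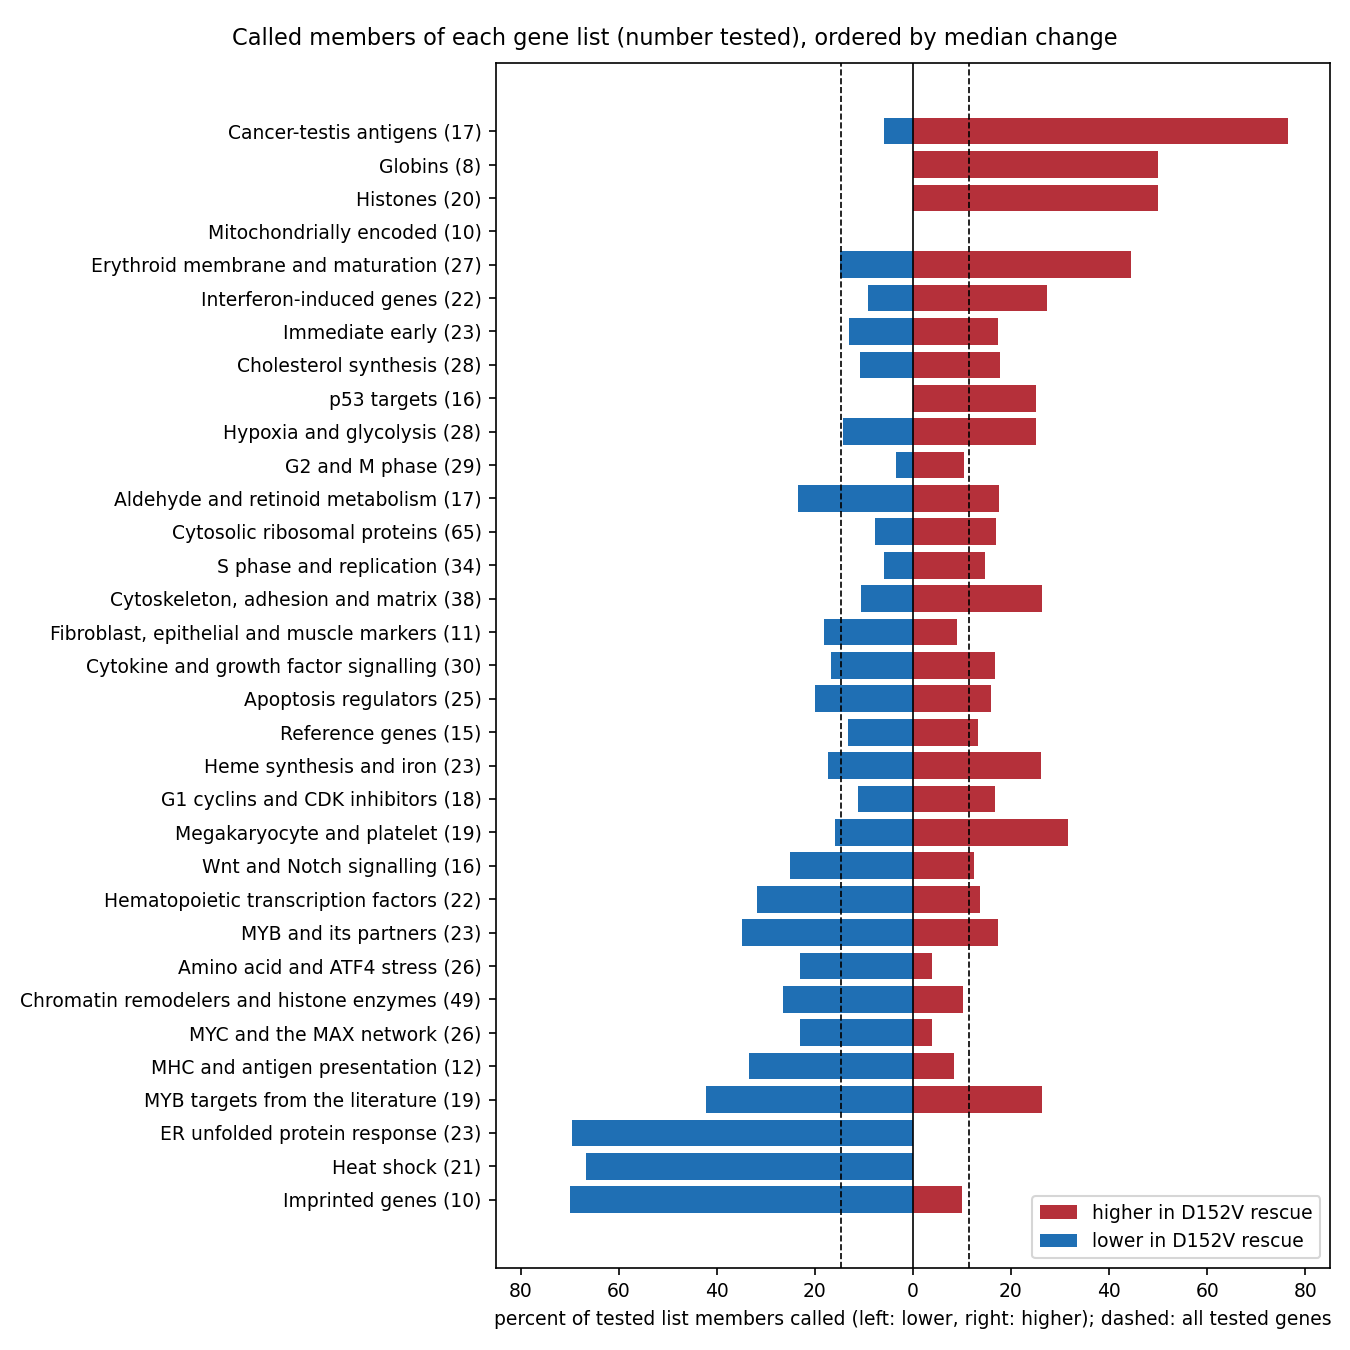
Percent of the tested members of each gene list called lower (left) or higher (right) in the D152V rescue, for the lists with at least 8 tested members (numbers in parentheses), ordered by median change. Dashed lines mark 11.4% higher and 14.6% lower over all tested genes. Cancer-testis, globin, histone and red cell membrane genes reach far beyond the line on the right, and imprinted, heat shock and endoplasmic reticulum genes beyond that on the left.

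Histone genes that changed were all higher. Of 20 tested, 10 were higher and none lower, with a median of 0.48. H2BC21 rose from 19.2, 24.1 and 27.5 to 51.97, 58.2 and 89.97 FPKM (1.44, SE 0.20, limma adjusted p = 0.00161), and H2BC12, the most abundant H2B gene named here, from 349.6, 349 and 425 to 592, 615 and 874 FPKM (0.87, SE 0.16, limma adjusted p = 0.00472). The linker histones H1-2 and H1-4 were higher by 1.18 and 1.005, but H1-2 lost its call with all 12 libraries in 1 fit (0.0838) and H1-4 with no filter (0.0623, the highest over all settings). The variant histones H2AX (-0.05), H3-3A (-0.06) and MACROH2A1 (-0.05) did not pass the test. Many histone transcripts lack poly(A) tails, the libraries were poly(A) selected, and their genes share sequence, so these values cover only part of the histone RNA. Without any 1 library 7 to 10 histone genes were higher, and with all 12 in 1 fit 4 were.

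Chromatin enzymes were more often lower, with 13 of 49 lower and 5 higher and a median of -0.17, and outside the blocks 10 of 44 lower and 4 higher. All tested genes together were also more often lower (14.6%) than higher (11.4%). CHD1, a nucleosome remodeler, fell from 61.9, 67.9 and 54.9 to 36.2, 39.02 and 36.2 FPKM (-0.71, SE 0.09, limma adjusted p = 0.00121). The demethylase KDM1A fell from 84.4, 85.9 and 95.4 to 52.6, 57.7 and 54.3 FPKM (-0.68, SE 0.08, limma adjusted p = 0.000695) and ARID1A, a remodeler subunit, changed by -0.64, both in the block of chromosome 1, and their calls were lost with all 12 libraries in 1 fit (0.121 and 0.112). SUZ12, a subunit of the Polycomb complex PRC2, fell from 49.8, 60.00 and 56.8 to 32.4, 31.9 and 32.6 FPKM (-0.76, SE 0.09, limma adjusted p = 0.000622) and lies in the block of chromosome 17. The acetyltransferase KAT2A (-0.57) was lower, and the methyltransferase DNMT3A (0.51) was higher. DNMT3A lost its call without wild-type replicate 1 or D152V replicate 1 or 2 (limma adjusted p up to 0.0653 over all settings). The lower count of 13 was 7 without wild-type replicate 1 and 6 without wild-type replicate 2, and the higher count of 5 fell to 0 without D152V replicate 2 and lay at 1 to 3 without any other 1 library except wild-type replicate 3.

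Among cell-cycle genes 20.6% of the S phase list and 13.8% of the G2 and M phase list were called, beside 25.9% of all tested genes. Of 34 S phase genes 5 were higher and 2 lower, with TK1, thymidine kinase, rising from 26.4, 27.4 and 29.2 to 47.04, 51.1 and 51.98 FPKM (0.83, SE 0.08, limma adjusted p = 0.000268). Of 29 genes of G2 and M phase 3 were higher and 1 lower. CCNB2 and KIF23, a cyclin and a kinesin of mitosis, were higher by 0.81 and 0.69 and lie in the block of chromosome 15, while TOP2A, topoisomerase II, was lower at -0.76, SE 0.09, limma adjusted p = 0.00083, a call lost with all 12 libraries in 1 fit (0.0595). Outside the blocks 1 gene of G2 and M phase was higher and 1 lower. The lower one, TOP2A, lies just past the 40 Mb end of the chromosome 17 block, in a window where 52 of 145 genes were lower. MKI67, a marker of dividing cells, changed by 0.18 and was not called. Of 26 genes of MYC and its network 6 were lower and 1 higher (26.9% called), and of 65 ribosomal protein genes 11 were higher and 5 lower (24.6%). Outside the blocks the ribosomal counts were 7 and 1 of 57. The higher ribosomal count over all 65 was 5 or 6 without any 1 library other than wild-type replicate 3, that of S phase was 2 without wild-type replicate 1 or D152V replicate 2 and 3 without D152V replicate 1, and that of G2 and M phase was 6 without wild-type replicate 3.

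Survival genes moved in both directions, 4 higher and 5 lower of 25, or 36.0% called beside 25.9% of all tested genes. BCL2L1, the anti-apoptotic BCL-XL, rose from 58.1, 66.2 and 58.03 to 112, 119 and 105 FPKM (0.87, SE 0.09, limma adjusted p = 0.000273), while the control held 65.7, 70.5 and 67.4 FPKM. BCL2L11, the pro-apoptotic BIM, fell from 8.91, 9.82 and 7.38 to 4.10, 3.94 and 4.01 FPKM (-0.94, SE 0.13, limma adjusted p = 0.00127). FAS, a death receptor, rose from 0, 0.0823 and 0.226 to 1.93, 1.62 and 1.31 FPKM (1.25, SE 0.17, limma adjusted p = 0.00129). It passed the filter through the D152V libraries alone, so its call depends in part on the filter. Of 16 genes listed as p53 targets 4 were higher and none lower. GDF15, a stress cytokine, rose from 14.5, 7.74 and 13.7 to 62.2, 59.9 and 55.5 FPKM (2.26, SE 0.20, limma adjusted p = 0.000184), against 19.6, 16.02 and 15.8 FPKM in the control and 38.8, 29.1 and 28.2 FPKM in the knockdown. The other called members were FAS, DDB2 and FDXR (a call lost without any 1 library other than D152V replicate 1, with adjusted p up to 0.173), and CDKN1A (0.24) and MDM2 (-0.12) did not pass the test. K-562 lacks functional p53, so the list is used here by name only. Without D152V replicate 2 or 3 its higher count was 2, and the 4 higher survival genes were 1 without D152V replicate 2 and 2 without D152V replicate 1 or 3.

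The largest increases included genes almost silent with wild-type MYB. TUBA3C, an alpha tubulin of testis, was at 0.222, 0.304 and 0.113 FPKM in the wild-type rescue and 53.2, 56.6 and 37.6 FPKM in the D152V rescue (5.35, SE 0.16, limma adjusted p = 9.17e-07), with 1.02, 1.70 and 2.196 FPKM in the control. TPD52, a vesicle trafficking protein, was at 0.192, 0.212 and 0.224 and 26.6, 25.1 and 28.3 FPKM (4.52, SE 0.11, limma adjusted p = 5.74e-07). ENAH, an actin regulator, was at 0.353, 0.443 and 0.473 and 16.1, 22.3 and 24.1 FPKM (3.92, SE 0.16, limma adjusted p = 5.44e-06). For TUBA3C, TPD52 and ENAH the knockdown and control libraries were also low, so the D152V line was the one that departed.

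ALDH1A1, an aldehyde dehydrogenase that makes retinoic acid, showed the opposite arrangement. It stood at 5.77, 3.06 and 2.77 FPKM in the wild-type rescue and 49.4, 59.6 and 65.2 FPKM in the D152V rescue (3.64, SE 0.22, limma adjusted p = 2.92e-05), while the control held 61.05, 81.9 and 68.8 FPKM and the knockdown 46.01, 65.8 and 67.6 FPKM. Here the wild-type line alone was low. IL18, an inflammatory cytokine, rose from 2.84, 2.26 and 2.94 to 32.8, 30.8 and 56.4 FPKM (3.43, SE 0.21, limma adjusted p = 3.68e-05), with the control between the lines at 8.48, 8.37 and 9.06 FPKM. RBPMS2, an RNA-binding protein in the block of chromosome 15, was at 1.62, 3.21 and 3.16 and 45.8, 43.3 and 47.7 FPKM, and the other increases among the 10 largest were ABRACL (3.65), ALDH1L1 (3.42), EFCAB10 (3.07) and CTAG2 (4.39).

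The largest decrease was H19, an imprinted long noncoding RNA. It stood at 108, 127 and 54.8 FPKM in the wild-type rescue and 0.959, 0.802 and 0.683 FPKM in the D152V rescue (-5.67, SE 0.27, limma adjusted p = 1.16e-05), and at 31.2, 30.7 and 20.4 FPKM in the control. Both lines departed from the control, in opposite directions. MUC19, a mucin, was at 39.7, 31.5 and 49.03 and 0.167, 0.239 and 0.864 FPKM (-4.86, SE 0.22, limma adjusted p = 8.58e-06), and CPVL, a carboxypeptidase, at 23.7, 20.2 and 21.5 and 0.0593, 0.0686 and 0.209 FPKM (-4.36, SE 0.13, limma adjusted p = 8.84e-07), each low in the control too. ARHGAP15, a GTPase regulator, fell from 40.7, 37.7 and 43.9 to 0.545, 1.64 and 4.56 FPKM (-3.88, SE 0.38, limma adjusted p = 0.000273), with 7.96, 8.70 and 7.90 FPKM in the control. The remaining decreases among the 10 largest were EPB41L3 (-4.03), CRYAB, CDH18 (-3.70), SSX3 (-3.66), GP1BB and C12orf75 (-3.42).

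**Figure D5:**
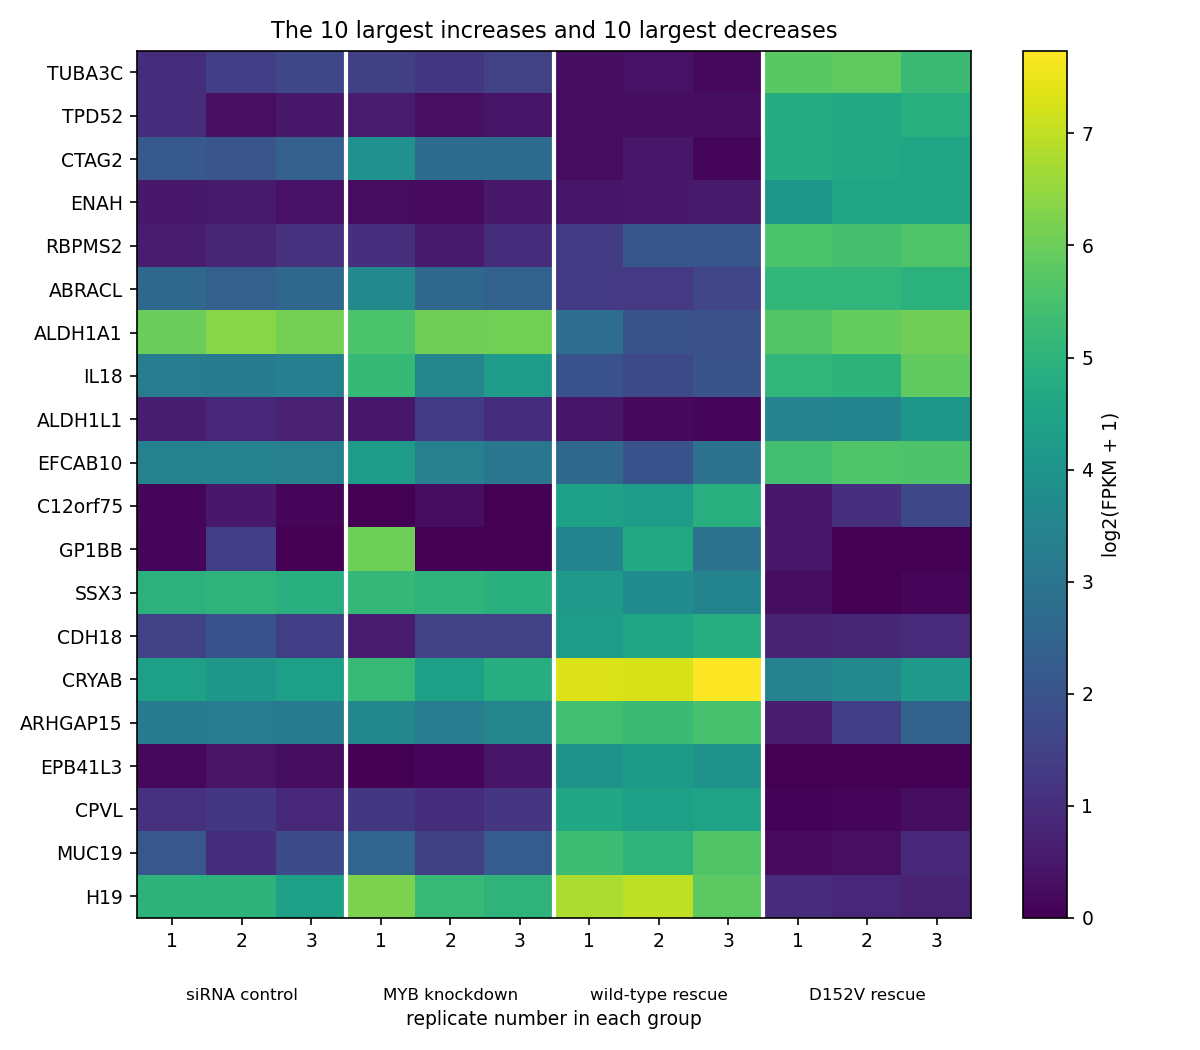
Level of the 10 largest increases and 10 largest decreases as log2(FPKM + 1), in colour, for the 12 libraries (columns, by group and replicate number). TUBA3C, TPD52 and ENAH are high in the D152V rescue alone, ALDH1A1 is low in the wild-type rescue alone, and C12orf75, CDH18, CPVL and EPB41L3 are high in the wild-type rescue alone.

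Some genes were on in one line and off in the other, taken as an FPKM of at least 1 in all 3 libraries of one line and under 0.1 in all 3 of the other. There were 13 in the D152V line, of which 2 had a control mean of at least 1 FPKM, and 25 in the wild-type line, of which 3 had. On in the D152V line were SPP1, which encodes osteopontin (6.62, 6.07 and 13.9 FPKM against 0, 0.0742 and 0.0425 FPKM), and EFEMP1, a matrix protein (6.97, 6.50 and 8.82 against 0, 0.0658 and 0 FPKM). On in the wild-type line were HMGA2, a chromatin protein of embryonic cells (5.08, 8.99 and 14.6 against 0.0371, 0.0636 and 0.0807 FPKM), and LDOC1 (4.26, 4.07 and 3.05 against 0, 0.0893 and 0.0403 FPKM). ITGA4, integrin alpha 4, was at 2.67, 4.88 and 6.65 FPKM in the wild-type line and listed at 0 in all 3 D152V libraries. MT1A, a metallothionein, was listed at 0 in the wild-type libraries and held 2.69, 2.78 and 1.18 FPKM in the D152V libraries. LDOC1 was also on in the control, at 3.83, 5.19 and 4.05 FPKM, whereas SPP1, EFEMP1, HMGA2, ITGA4 and MT1A had a control mean under 1 FPKM.

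Cancer-testis antigens, germline genes re-expressed in tumors, were higher in 13 of 17 tested and lower in 1, with a median of 0.78. MAGEC2 rose from 25.04, 27.2 and 27.3 to 68.5, 82.4 and 85.03 FPKM (1.53, SE 0.10, limma adjusted p = 4.32e-05), with 64.5, 76.2 and 71.1 FPKM in the control, and SSX1 from 54.7, 50.5 and 42.8 to 118, 118 and 116 FPKM (1.24, SE 0.10, limma adjusted p = 0.000111), with 98.2, 99.7 and 84.4 FPKM in the control. In both genes the wild-type line was below the control. CTAG2 was at 0.188, 0.408 and 0.108 and 26.8, 24.7 and 22.9 FPKM, and it and 4 MAGEA genes lie in the X chromosome block, outside of which 8 of 12 were higher and 1 lower. MAGEC2 counts as outside, but it lies on X from 140 to 150 Mb, between the blocks. That window had under 20 tested genes and was not assessed. SSX1 and SSX3 also count as outside and lie on X from 40 to 50 Mb, where 14 of 64 tested genes were higher and 2 lower (median 0.099). On X as a whole 133 genes were higher and 35 lower, so the count outside the blocks is not free of that direction. MAGEC1 was lower by -1.12, and SSX3, of the same family as SSX1, fell from 16.9, 12.3 and 10.4 to 0.219, 0 and 0.0967 FPKM. Members of these families are near-identical copies, and their separate values are uncertain. With all 12 libraries in 1 fit 9 were higher.

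Imprinted genes, expressed from 1 parental copy, were lower in 7 of 10 tested and higher in 1, with a median of -0.75. Besides H19, DLK1, a Notch-related ligand, fell from 4.45, 7.76 and 8.91 to 0.407, 0.514 and 0.991 FPKM (-2.27, SE 0.24, limma adjusted p = 0.000397), with 4.04, 5.56 and 7.97 FPKM in the control. H19 and DLK1 passed the filter through the wild-type libraries alone, so their calls depend in part on the filter. PLAGL1, a zinc finger protein, fell from 48.1, 55.8 and 51.1 to 27.6, 27.4 and 30.2 FPKM (-0.84, SE 0.09, limma adjusted p = 0.000348) with 27.7, 25.9 and 26.5 FPKM in the control, a call lost with all 12 libraries in 1 fit (0.226). DIRAS3 (-1.48), CDKN1C (-0.62), GRB10 (-0.65) and L3MBTL1 (-1.08) were lower and NAP1L5 (0.63) was higher. L3MBTL1 lies in the block of chromosome 20, and outside the blocks 6 of 9 were lower and 1 higher. DIRAS3 lost its call without wild-type replicate 2 or 3 or D152V replicate 1 or 2 (up to 0.0996) and CDKN1C with all 12 libraries in 1 fit (0.132). The lower count was 4 without wild-type replicate 1 and 3 without wild-type replicate 2 or 3.

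Interferon-induced genes were 6 higher and 2 lower of 22, or 36.4% called beside 25.9% of all tested genes. IFI16, a DNA sensor, rose from 24.9, 25.4 and 31.4 to 66.5, 72.1 and 84.3 FPKM (1.42, SE 0.12, limma adjusted p = 0.000175), where the control held 7.83, 8.44 and 7.56 FPKM. The membrane proteins of the IFITM family split: IFITM1 rose from 92.8, 74.6 and 102 to 157, 160.1 and 160.4 FPKM (0.83, SE 0.11, limma adjusted p = 0.00121), whereas IFITM3 fell from 6.28, 6.92 and 6.71 to 1.29, 1.61 and 1.72 FPKM (-1.59, SE 0.13, limma adjusted p = 0.000127) and IFITM2 changed by -2.10. The control held 59.4, 74.3 and 79.7 FPKM of IFITM3, far above both lines. The higher count of 6 was 3 without wild-type replicate 1, wild-type replicate 2 or D152V replicate 2.

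The direction of the called genes was then read in libraries that the comparison does not use, the knockdown against the siRNA control. Of 1320 higher genes tested there, 836 (63.3%) were also higher in the knockdown, and of 1737 lower genes 1216 (70.0%) were lower in it. Over all 12195 genes tested in both, 46.8% were higher and 53.2% lower in the knockdown. In all 2052 called genes (67.1%) had the same sign. Knockdown replicate 1 stood apart from the other knockdown libraries, with an FPKM total of 1215578 against 737873 and 727357. Without it the shares were 65.0% and 76.5%, beside 44.3% higher and 55.7% lower over all genes tested in both. Without the genes of the blocks the shares were 65.0% and 71.5%, beside 46.9% and 53.1%. The number of genes behind them was lower without wild-type replicate 2, D152V replicate 1 or D152V replicate 2, at 1322, 1357 and 1242 of the same sign, or 66.2% to 69.0%. The 2 contrasts share no library, but the control and knockdown groups are 1 line given 2 siRNAs and the rescue groups are 2 lines given 1.

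Set against the control, neither rescue line was the one that departed in most genes. The control mean lay nearer to the wild-type rescue in 678 of the 1454 higher genes (46.6%) and in 929 of the 1864 lower genes (49.8%), and in 48.4% of all tested genes. LMO2, KIT, MYC and STAT5A are among those where it lay nearer to the wild-type rescue, and HSPA5, HSPA1A, RHAG and ALDH1A1 among those where it lay nearer to the D152V rescue.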

How the data were processed

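The authors deposited 1 table of FPKM values with a column per library and 60658 rows, of which 34952 are at 0 in all 6 rescue libraries. Per the submitters' processing notes the tools named are Cufflinks 2.2.1, TopHat2 2.0.13, Trimmomatic 0.33 and bcl2fastq 2.17.1.14, and the assembly is GRCh38. The sources used here give neither the annotation nor the use of strand, so overlapping and antisense genes cannot be separated with certainty. Whole reads could not be recovered from low values (among genes under 0.05 FPKM, 15.7% of the ratios in the median pair of libraries came within 2% of their median), so depth is unknown and no count model was used.

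A gene was kept if 3 or more of the 6 rescue libraries had an FPKM of 1 or more. Values were taken as log2(FPKM + 1) and fitted with limma 3.58.1 (R 4.3.3, moderated with a variance trend, 4 residual degrees of freedom), and p-values were adjusted by Benjamini-Hochberg over the whole table, with a threshold of 0.05. The knockdown and the control were fitted apart in the same way. Tables and figures were made with Python 3.11.15, pandas 2.3.3 and matplotlib 3.10.9, and the fit was tested on simulated data.

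The members, the 37 gene lists and the tests were chosen with earlier results of these data known. The text names MYB, the 10 strongest increases and the 10 strongest decreases (groups apart, mean FPKM of at least 5, without small RNAs, MTRNR2L copies, pseudogenes and clone names), the 6 highest on-or-off genes in each direction, up to 4 called genes from any list that had 3 or more, and a set of MYB targets and lineage genes. Other list members printed with their change were picked after their values were seen. Positions and promoters come from RefSeq tables of GRCh38.p14, in which 11598 tested genes had a chromosome. Of the listed symbols 8 were not matched, and some named genes are not reported here.

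Replicate numbers were checked for pairing by correlating, over genes, deviations from the line means: the 3 same-numbered pairs of rescue libraries had r of 0.32, 0.114 and 0.357, and the other pairs -0.305 to 0.041. The numbers were therefore taken to pair the libraries. The main counts and p-values come from the fit without this pairing, and the fit with a block, which called more genes, was an alternative. The others were no filter, a pseudocount of 0.1, a filter at a mean FPKM of 5, scaling by quantiles or by median ratios, robust moderation, no variance trend, an adjusted p under 0.01, all 12 libraries in 1 fit and leaving out each library. Counts without the genes of the blocks and a knockdown contrast without its replicate 1 were added after seeing the data.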

Additional observations from a re-analysis of the deposited data

How the results depend on the processing

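At an adjusted p under 0.01, 723 genes were higher and 858 lower in the D152V rescue, 967 of the called genes had the same sign in the knockdown, and 100 genes on chromosome 15 were higher. With all 12 libraries in 1 fit these counts were 796, 835, 991 and 95. Leaving out 1 library gave 750 to 1483 higher and 1077 to 1573 lower genes, 1242 to 2059 of the same sign and 105 to 159 higher on chromosome 15. The other alternatives, which changed the pseudocount, filter, scaling, moderation or variance trend or left out the genes of the blocks, kept these counts within 1.5 times. MYB was lower in each setting, from -0.52 to -0.37, and its adjusted p stayed under 0.05.

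With the replicate number as a block, 1938 genes were higher and 2530 lower, 2802 had the same sign in the knockdown and 193 on chromosome 15 were higher. Of the named genes GATA2, MYADM and HBG2 gained a call under the block, and it changed no other call. Of 167 named genes tested 155 were called, and 110 kept the call in each setting at 0.05 in which they passed the filter, which not all did when 1 library was left out or a mean FPKM of 5 was asked for. The change turned sign in 4 genes that were not called: HBG1 (-0.02 without wild-type replicate 1, -0.01 without wild-type replicate 2, -0.10 without D152V replicate 3, range to 0.34), HBG2 (-0.01 without D152V replicate 3, range to 0.51), CEBPB (-0.01 without D152V replicate 1, range to 0.19) and ITGA2B (0.06 without D152V replicate 1, range from -0.12). Ranges are over leaving out 1 library, and the cause was not tested. Of 74 list counts 59 moved by over 1.5 times in at least 1 setting.

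Scaling moved the median change of all genes from -0.036 to -0.02 (quantile) or -0.012 (median ratio). Depth is unknown, so no detection limit can be given for genes listed at 0.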

Other observations

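Of 26 tested genes of amino acid supply and the ATF4 response 6 were lower and 1 higher, with a median of -0.15. The share called was 26.9%, beside 25.9% of all tested genes. For the hypoxia and glycolysis, cytokine and growth factor, and immediate early lists below it was 39.3%, 33.3% and 30.4%. PSAT1, an enzyme of serine synthesis, fell from 26.2, 26.00 and 31.2 FPKM in the wild-type rescue to 15.5, 17.5 and 14.5 FPKM in the D152V rescue (-0.78, SE 0.11, limma adjusted p = 0.00157), and SLC7A11, the cystine transporter, from 4.35, 3.85 and 4.13 to 2.01, 1.65 and 2.27 FPKM (-0.79, SE 0.14, limma adjusted p = 0.00403). The control held 34.03, 34.1 and 31.5 FPKM of PSAT1 and 1.93, 1.38 and 1.66 FPKM of SLC7A11, so for PSAT1 the wild-type values lay nearer to it and for SLC7A11 the D152V values did. The lower count of 6 was 3 without wild-type replicate 1 or D152V replicate 1. Of 28 hypoxia and glycolysis genes 7 were higher and 4 lower, among them SLC2A3, a glucose transporter, which rose from 55.4, 56.6 and 53.6 to 89.9, 95.9 and 84.3 FPKM (0.69, SE 0.08, limma adjusted p = 0.000505). BNIP3, a mitophagy receptor, fell from 22.03, 24.4 and 20.5 to 12.5, 11.3 and 12.7 FPKM (-0.83, SE 0.10, limma adjusted p = 0.000758). The lower count of 4 was 1 without wild-type replicate 1 or D152V replicate 1 and 2 without D152V replicate 2.

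Of 30 cytokine and growth factor genes 5 were higher and 5 lower, and IGFBP4, which binds insulin-like growth factors, fell from 34.99, 35.2 and 41.6 to 10.2, 10.4 and 6.29 FPKM (-1.97, SE 0.17, limma adjusted p = 0.000184), with 10.6, 9.69 and 12.7 FPKM in the control. The higher count was 2 without D152V replicate 1 and 1 without D152V replicate 2. STAT5B, the partner of STAT5A, was lower at -0.60, SE 0.08, limma adjusted p = 0.00149, a call lost with all 12 libraries in 1 fit (0.0999, in a range from 0.00143). Of the retinoic acid receptors RARA fell from 17.2, 16.1 and 15.5 to 10.04, 8.73 and 7.38 FPKM (-0.84, SE 0.12, limma adjusted p = 0.00178), a call lost with all 12 libraries in 1 fit (0.0958, in a range from 0.00112), and RARB rose from 0.0982, 0.42 and 0.0316 to 1.86, 4.05 and 3.11 FPKM (1.74, SE 0.23, limma adjusted p = 0.00127). RARB passed the filter through the D152V libraries alone, so its call depends in part on the filter. Among 23 immediate early genes 4 were higher and 3 lower. BTG2, an antiproliferative gene, rose from 8.38, 9.15 and 7.24 to 18.8, 20.9 and 19.9 FPKM (1.18, SE 0.11, limma adjusted p = 0.000204), and FOSL1, an AP-1 subunit, fell from 58.8, 65.7 and 52.5 to 33.9, 26.4 and 21.9 FPKM (-1.09, SE 0.15, limma adjusted p = 0.0015), with 26.6, 27.1 and 23.3 FPKM in the control. The higher count was 2 without wild-type replicate 2, and the lower count 5 without D152V replicate 3.

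Further lists held mixed counts, where 25.9% of all tested genes were called. The shares called were 28.6% for cholesterol synthesis, 36.8% for cytoskeleton, adhesion and matrix, and 41.7% for MHC and antigen presentation. They were 37.5% for Wnt and Notch, 41.2% for aldehyde and retinoid genes and 27.8% for G1 cyclins and CDK inhibitors. Stem and progenitor surface genes had 40.0% and reference genes 26.7%. Cholesterol synthesis had 5 higher and 3 lower of 28 tested genes, and the higher count was 2 without wild-type replicate 1 or 2 or D152V replicate 2 or 3 and 8 without wild-type replicate 3. Cytoskeleton, adhesion and matrix genes had 10 higher and 4 lower of 38, with 5 higher without D152V replicate 2, 6 higher without D152V replicate 3 and 2 lower without wild-type replicate 1 or 2. Genes of MHC and antigen presentation had 1 higher and 4 lower of 12, with 2 lower without D152V replicate 1 or 2. Wnt and Notch genes had 2 higher and 4 lower of 16, and without any 1 library the lower count was 1 or 2, and the higher count 1 without wild-type replicate 1 or 2 or D152V replicate 1 or 2. Aldehyde and retinoid genes had 3 higher and 4 lower of 17, with 1 lower without wild-type replicate 1 and 2 lower without wild-type replicate 2 or D152V replicate 1. G1 cyclins and CDK inhibitors had 3 higher and 2 lower of 18, with 1 higher without any 1 library. Stem and progenitor surface genes had 2 lower of 5 tested, with 1 lower without any 1 of the wild-type libraries. The 10 tested mitochondrially encoded genes had a median of 0.39 and limma adjusted p-values from 0.237 to 0.725. The list summed to 136610, 90125 and 42792 FPKM in the wild-type rescue and 137050, 94520 and 84502 FPKM in the D152V rescue. Wild-type replicate 3 was thus the lowest, although all transcripts with a mitochondrial symbol held 20.5% of its total. Of 15 reference genes 2 were higher and 2 lower, with a median of 0.01.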
